A study of Drosophila melanogaster with 6 samples.

Results

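The cytoplasmic ribosomal protein genes of *Drosophila* were taken as every gene whose symbol starts with RpL, RpS or RpLP followed by a number, which gave 92 of the 14240 genes in the table, with 232 of the 30828 transcripts. The study used EC-tagging, in which RNA made in chosen cells of a living larva takes up an ethynyl-modified base and is then biotinylated and captured on streptavidin beads. For EC-RNA, early L3 larvae carrying 109(2)80-Gal4 and UAS-CD:UPRT were fed 5-ethynylcytosine (5EC), so that only Gal4-expressing cells, in the carcass mainly the multidendritic (md) sensory neurons, hold the CD:UPRT enzyme that makes 5EC usable. For ref-RNA, early L3 larvae with UAS-CD:UPRT but no Gal4 were fed 5-ethynyluridine (5EUd), which labels RNA in all cells without the enzyme. For mock-RNA, early L3 larvae with UAS-CD:UPRT and no Gal4 received neither compound and went through the same dissection and purification. All 3 sample types therefore share the UAS-CD:UPRT transgene, and only EC-RNA carries the driver, so the driver and the 5EC diet cannot be told apart. Feeding lasted 12 hours, and RNA came from pooled carcasses (muscle, epidermis and peripheral neurons) from which the central nervous system, where 109(2)80-Gal4 is also active, had been removed. Each sample type had 2 independently prepared replicates, and p-values measure only the spread between these libraries.

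A ribosome is built from RNA and a set of proteins, nearly all of them present in a single copy, and the genes for these proteins are transcribed in every growing cell at levels that stay close to each other. RpL proteins belong to the large subunit, which joins amino acids, and RpS proteins to the small subunit, which reads the mRNA, while RpLP0, RpLP1 and RpLP2 form the stalk that recruits translation factors. In flies, loss of a single copy of many of these genes gives the *Minute* phenotype of slow growth and short bristles. Their mRNAs are short, abundant and long-lived, so newly made RNA and the standing pool of mRNA can give different pictures of them. Of the 92 genes, 48 encode large-subunit proteins or their close copies, 38 small-subunit proteins or their close copies and 3 the stalk. The remaining 3 (RpL7-like, RpL24-like and RpLP0-like) resemble yeast proteins that help assemble the large subunit and leave before it is finished. They lie on every large chromosome, with 19 on 2L, 21 on 2R, 14 on 3L, 23 on 3R, 14 on X and 1 (RpS3A) on 4.

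Expression was deposited in TPM, a level per transcript length scaled to a fixed total in each library, and the values of a gene's transcripts were added. Blank cells were read as 0, and read counts are not part of the table, so depth can only be seen indirectly. A gene above 0 was listed for 69.8% and 72.8% of all genes in the ref-RNA replicates, 33.4% and 35.2% in EC-RNA and 15.3% and 12.7% in mock-RNA. The study states that far fewer reads mapped in mock-RNA than in EC-RNA, and fewer in EC-RNA than in ref-RNA. Muscle markers were above 1 TPM in all 6 libraries for 7 of 7 genes, with summed levels of 15730 to 58094 TPM. Of 6 md neuron markers, 6 and 6 reached 1 TPM in the ref-RNA replicates, 1 and 4 in EC-RNA and 2 and 3 in mock-RNA. Their summed level was 152 and 141 TPM in ref-RNA, 2.78 and 155 TPM in EC-RNA and 10.9 and 17.8 TPM in mock-RNA. In EC-RNA replicate 1, the md neuron genes *ppk* and *kn* were listed at 0, and 4 of the 6 markers were above 0. The 6 general neuron markers summed to 192 and 144 TPM in ref-RNA, 143 and 656 TPM in EC-RNA and 202 and 158 TPM in mock-RNA, and 6 epidermis and cuticle markers to 16233 and 12963 TPM, 22047 and 37018 TPM, and 4152 and 146260 TPM.

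In ref-RNA the ribosomal protein genes were an abundant set with a narrow range of levels. They were listed above 0 for 85 and 86 of 92 genes in the replicates, with median levels of 147 and 156 TPM. Of the 65 genes with no close copy, 64 were above 0, and their mean levels ran from 34.9 TPM for RpL37A to 736 TPM for RpS3A with a median of 174 TPM and quartiles of 121 and 234 TPM. The exception was RpL39, a very small large-subunit protein, at 0 in both replicates. The replicates lay close together, with a median absolute difference of 0.34 on the log2(TPM + 1) scale, and only RpL29 differed more than 10-fold, at 92.3 and 2.85 TPM. The median ref-RNA level was 147 TPM for large-subunit genes and 167 TPM for small-subunit genes. The 3 assembly-factor homologues were lower, at 17.0 to 24.4 TPM.

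The ribosomal protein genes with the highest ref-RNA levels already showed how differently the 3 sample types treated the set. RpS3A, a small-subunit protein encoded on chromosome 4 (65225 to 67207), stood at 717 and 755 TPM in ref-RNA, 502 and 192 TPM in EC-RNA and 114 and 59.3 TPM in mock-RNA. RpL5, which carries the 5S rRNA into the large subunit, stood at 476 and 625 TPM in ref-RNA, 446 and 1686 TPM in EC-RNA and 98.6 and 0 TPM in mock-RNA. RpL10, which helps form the site where the large subunit joins amino acids, had the closest EC-RNA replicates of these genes, at 369 and 604 TPM in ref-RNA against 359 and 535 TPM in EC-RNA, with 80.3 and 218 TPM in mock-RNA. These 3 genes were above 100 TPM in both EC-RNA replicates. RpL15 had 451 and 434 TPM in ref-RNA, 2601 and 174 TPM in EC-RNA and 188 and 0 TPM in mock-RNA. RpS15Aa had 353 and 510 TPM in ref-RNA, 419 and 1649 TPM in EC-RNA and 34.3 and 133 TPM in mock-RNA. RpS29 had 410 and 306 TPM in ref-RNA, 119 and 1256 TPM in EC-RNA and 38.4 and 209 TPM in mock-RNA. These 3 were also above 100 TPM in both EC-RNA replicates, which lay further apart than the ref-RNA replicates. The next 3 were below 10 TPM in EC-RNA replicate 1 and above 100 TPM in replicate 2. RpS20 had 355 and 505 TPM in ref-RNA, 7.68 and 790 TPM in EC-RNA and 127 and 57.8 TPM in mock-RNA. RpL37a had 304 and 424 TPM in ref-RNA, 9.19 and 1080 TPM in EC-RNA and 127 and 0 TPM in mock-RNA. The stalk gene RpLP0 had 323 and 387 TPM in ref-RNA, 3.88 and 890 TPM in EC-RNA and 57.4 and 125 TPM in mock-RNA, the same split between EC-RNA replicates as in RpS20 and RpL37a.

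**Figure D1:**
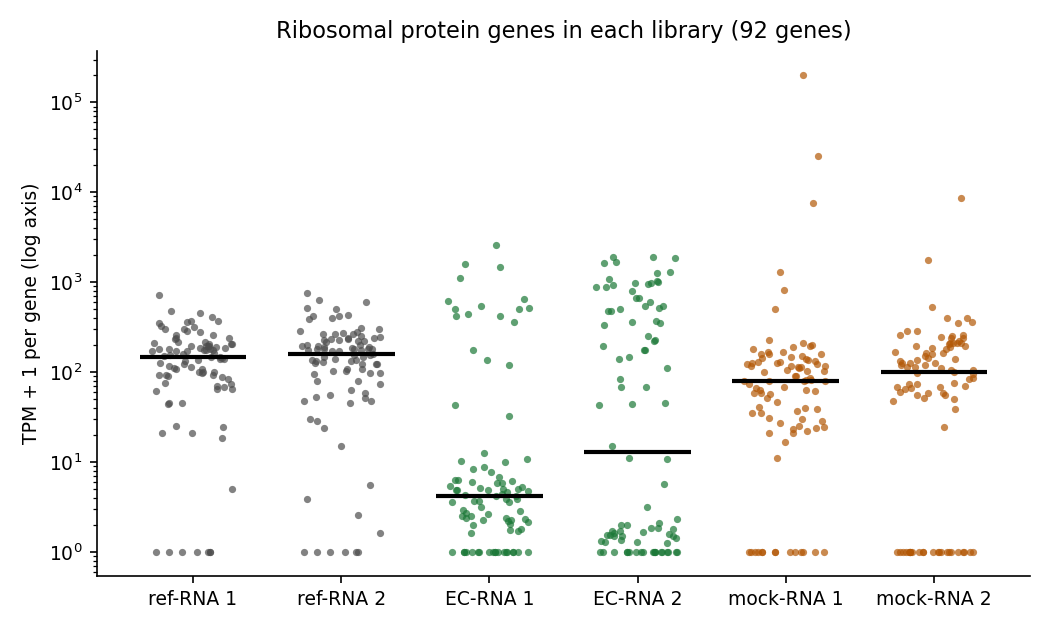
Levels of the 92 ribosomal protein genes in each of the 6 libraries, in TPM plus 1 on a log axis, with 1 point per gene and a bar at the median. The ref-RNA replicates form a compact band with medians of 147 and 156 TPM, EC-RNA is split into a low and a high set with medians of 3.21 and 12.0 TPM, and mock-RNA keeps most genes near 100 TPM with others at 0.

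In EC-RNA some ribosomal protein genes were at a sizeable part of their ref-RNA level or above it and others were at a few percent of it or less. Among all 92, 73 were above 0 in each EC-RNA replicate, but only 20 and 47 reached 10 TPM, against 84 and 82 in ref-RNA. Of the 82 genes with at least 20 TPM in ref-RNA, 19 (23.2%) stood at 1/8 of their ref-RNA level or above in EC-RNA replicate 1 and 46 (56.1%) in replicate 2. Over all 3595 genes at 20 TPM or more in ref-RNA, these shares were 29.8% and 45.0%. At or above the ref-RNA level itself were 10 ribosomal protein genes in replicate 1 and 34 in replicate 2. The genes above 0 but below 1/8 sat far below it, with medians of 1.81% and 0.613% of their ref-RNA level in replicates 1 and 2. Without counts, levels this low cannot be told from a floor set by depth, so these medians are not firm estimates of expression. Over all genes these medians were similar, at 1.61% and 0.648%. In both replicates 14 genes were at 1/8 or above, in replicate 2 alone 32, in replicate 1 alone 5 (RpS9, RpS26, RpL19, RpL11 and RpLP0-like) and in neither 31. The 31 were 37.8% of the set, against 45.4% of all 3595 genes that reached 1/8 in neither. Matched on level, at 100 to 500 TPM in ref-RNA, 9 of 63 ribosomal protein genes (14.3%) were at 1/8 or above in both EC-RNA replicates, against 37.3% of all 758 genes in that band. At 20 to 100 TPM the order was the opposite, at 17.6% of the set against 11.5% of all genes, and over all levels from 20 TPM it was 17.1% against 20.2%. No test was run on these shares.

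Replicates of EC-RNA disagreed for a large part of the set. On the log2(TPM + 1) scale the median absolute difference between the EC-RNA replicates was 1.87, and 35 of 92 genes (38.0%) differed more than 10-fold, against 13.2% of all genes. In 30 of these 35 genes replicate 2 was higher. Across the 92 genes, which are not independent replicates, Pearson's r between replicates was 0.48 in EC-RNA and 0.95 in ref-RNA. RpL11, a partner of RpL5 on the large subunit, had 643 TPM in EC-RNA replicate 1 and 0.806 TPM in replicate 2. The small-subunit gene RpS9 split the same way, at 519 and 1.32 TPM. The opposite split was the more frequent, with RpS15 at 2.62 and 995 TPM, RpS7 at 4.26 and 1290 TPM and RpS10b at 1.24 and 518 TPM. In all, 24 genes were below 10 TPM in replicate 1 and at least 100 TPM in replicate 2, while 3 (RpS9, RpS26 and RpL11) showed the reverse. Md neuron markers were also lower in replicate 1 (2.78 against 155 TPM), and the part of this difference in the result was not tested.

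**Figure D2:**
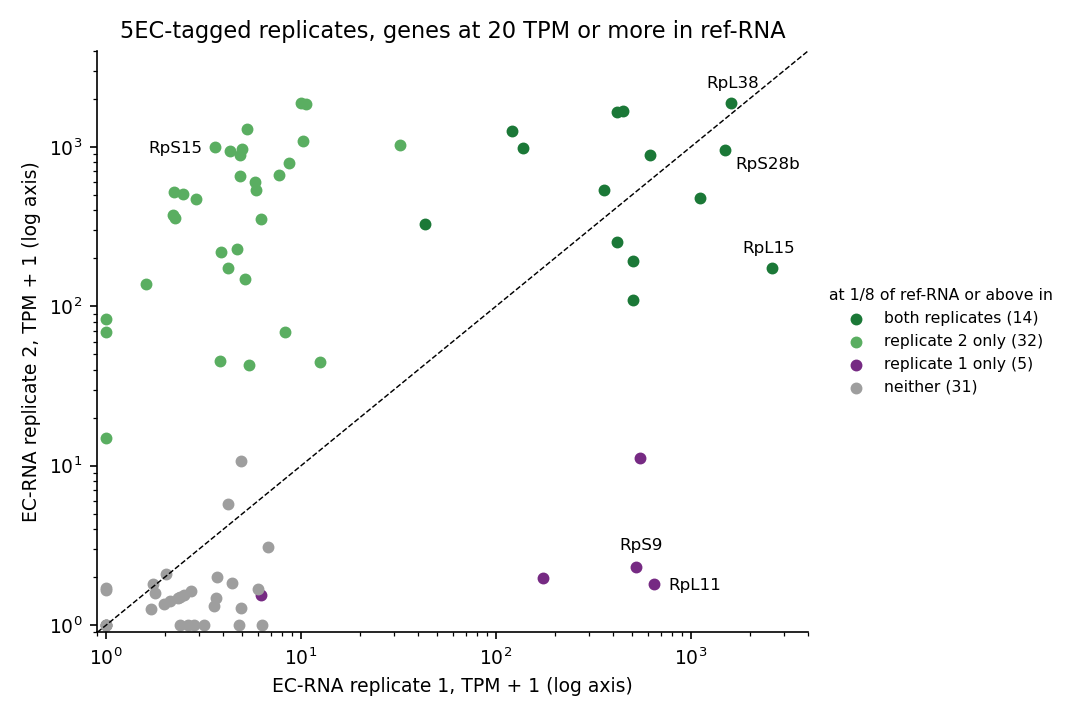
EC-RNA replicate 1 (x axis) against replicate 2 (y axis), in TPM plus 1 on log axes, for the 82 ribosomal protein genes at 20 TPM or more in ref-RNA, coloured by the replicates in which they reached 1/8 of ref-RNA. The 32 genes at upper left reached 1/8 of ref-RNA in replicate 2 only, 14 genes reached it in both, and the dashed line marks equal levels.

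The comparison of EC-RNA with ref-RNA asks which transcripts the labelled neurons make in excess of, or below, the carcass as a whole. Of 85 ribosomal protein genes tested, RpL38 and RpS28b rose and 32 fell at an adjusted p below 0.05 and at least 2-fold (limma, Benjamini-Hochberg adjustment over 9064 genes). Over all genes tested, 0.199% rose and 56.0% fell, against 2.35% and 37.6% of the ribosomal protein genes. The order of the shares that fell depended on the setting, since it was 36.6% of the set against 36.5% of all genes when only averages of 10 TPM or more were kept, and 37.6% against 30.3% with a pseudocount of 10 TPM. Under median-of-ratios scaling 6 rose and 7 fell (7.06% and 8.24%, against 1.27% and 28.4% of all genes). After quantile normalization 0 genes of the set and 0 of all genes were called (limma; without adjustment, p was below 0.05 for 3 genes of the set higher and 27 lower, and for 371 and 810 of all genes). The median log2 difference was -3.005 for the ribosomal protein genes and -2.59 for all genes. That order turned under median-of-ratios scaling (-0.33 against -1.22), with a pseudocount of 0.1 TPM (-3.61 against -4.96), without EC-RNA replicate 1 (-1.69 against -2.62) and, by a small margin, without ref-RNA replicate 2 (-2.91 against -2.93). The order held without EC-RNA replicate 2 (-5.23 against -2.95) and, by a small margin, without ref-RNA replicate 1 (-3.02 against -2.83). The number of genes called also moved widely when a library was left out. Such a fit leaves 1 library in a group and takes its spread from the other group alone, so its counts are not given. In RNA pooled from many cells, fewer labelled cells making a transcript and less of it per cell cannot be told apart. The share of TPM from mitochondrially encoded transcripts also moved with sample type, at 24.2% and 25.0% in ref-RNA and 39.1% and 31.1% in EC-RNA. Without those transcripts 2 ribosomal protein genes rose and 31 fell (2.35% and 36.5%, against 0.213% and 55.1% of all genes).

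RpL38 (FBgn0040007), a short protein of the large subunit, encoded on chromosome 2R (4515388 to 4516458 in BDGP6), had the highest mean EC-RNA level of the set. It stood at 117 and 78.6 TPM in ref-RNA, 1612 and 1887 TPM in EC-RNA and 57.5 and 0 TPM in mock-RNA, with both EC-RNA replicates above all 4 others. The log2(TPM + 1) difference from ref-RNA was 4.17 ± 0.60 (SE, n = 2 and 2; limma, adjusted p = 0.0102). The call was lost with all 3 sample types in one fit (limma, adjusted p = 0.190) and after quantile normalization (limma, adjusted p = 0.354). The EC-RNA level sat on a different transcript, since FBtr0111120 (401 nt) held 1608 and 1792 TPM in EC-RNA and 0 in both ref-RNA replicates, where FBtr0334985 (1013 nt) held all of it. TPM divides by length, and the log2 ratio of EC-RNA to ref-RNA was 4.16 in TPM and 2.88 in TPM multiplied by annotated transcript length. The annotated length need not equal the length used in quantification, so the second ratio may undo the scaling only in part.

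RpS28b (FBgn0030136), the expressed copy of a small-subunit protein on chromosome X (9554623 to 9555661), had 173 and 186 TPM in ref-RNA, 1487 and 951 TPM in EC-RNA and 36.2 and 54.5 TPM in mock-RNA. Its difference from ref-RNA was 2.72 ± 0.57 (SE, n = 2 and 2; limma, adjusted p = 0.0255). The call was lost after quantile normalization (limma, adjusted p = 0.354). It was also lost without ref-RNA replicate 1 or 2 (differences of 2.67 and 2.775), where only EC-RNA gave the spread. Here too the transcript assignment shifted, with FBtr0071360 at 1476 and 0 TPM and FBtr0343411 at 11.2 and 951 TPM in the EC-RNA replicates.

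In 6 genes (7.06% of those tested) both EC-RNA replicates exceeded both ref-RNA replicates, against 3.16% of all genes, and in 43 (50.6%) both were below, against 69.1%. Besides the 2 called genes, the 6 were chosen here for that pattern after their values were seen. RpS24, a small-subunit gene, had 170 and 283 TPM in ref-RNA and 613 and 881 TPM in EC-RNA. RpS23, which lies near the decoding site of the small subunit, had 149 and 134 TPM in ref-RNA and 1111 and 475 TPM in EC-RNA. RpL22 had 99.7 and 62.9 TPM in ref-RNA and 415 and 252 TPM in EC-RNA. RpL37A, a separate gene from RpL37a, had 23.4 and 46.5 TPM in ref-RNA and 501 and 109 TPM in EC-RNA. None of these 4 passed the test.

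At the other end, 32 genes with at least 20 TPM in ref-RNA were below 10 TPM in both EC-RNA replicates, and 19 of them were below 2 TPM. The 4 listed at 0 in both were RpL30, RpS12, RpL41 and RpS15Ab, and a 0 in a table without counts may be a missed transcript. RpL30 had 134 and 102 TPM in ref-RNA (limma, adjusted p = 0.00287), RpS12 had 68.6 and 50.7 TPM (limma, adjusted p = 0.00286) and RpL41, which encodes the smallest ribosomal protein, had 63.5 and 56.9 TPM (limma, adjusted p = 0.00286). RpS15Ab, the minor copy of RpS15A, had 44.8 and 55.0 TPM in ref-RNA (limma, adjusted p = 0.00286) and was at 0 in mock-RNA as well. All 4 calls were lost after quantile normalization (limma, adjusted p = 0.354), and those of RpL30 and RpS12 with all 3 sample types in one fit (limma, adjusted p = 0.0761 and 0.0934). RpL6, picked after its values were seen, was listed at 0.788 and 0.579 TPM in EC-RNA against 140 and 158 TPM in ref-RNA and 121 and 192 TPM in mock-RNA. Its difference from ref-RNA was -6.48 ± 0.62 (SE, n = 2 and 2; limma, adjusted p = 0.00421), and the call was lost under median-of-ratios scaling (limma, adjusted p = 0.0630) and quantile normalization (limma, adjusted p = 0.354). With EC-RNA levels near the floor its size depended on the pseudocount, at -7.58 with 0.1 TPM and -3.89 with 10 TPM. RpL7-like had 19.96 and 13.9 TPM in ref-RNA and 0 and 0.279 TPM in EC-RNA, a difference of -3.97 ± 0.30 (SE, n = 2 and 2; limma, adjusted p = 0.00307) that was not called after quantile normalization (limma, adjusted p = 0.816) or with all 3 sample types in one fit (limma, adjusted p = 0.0814).

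**Figure D3:**
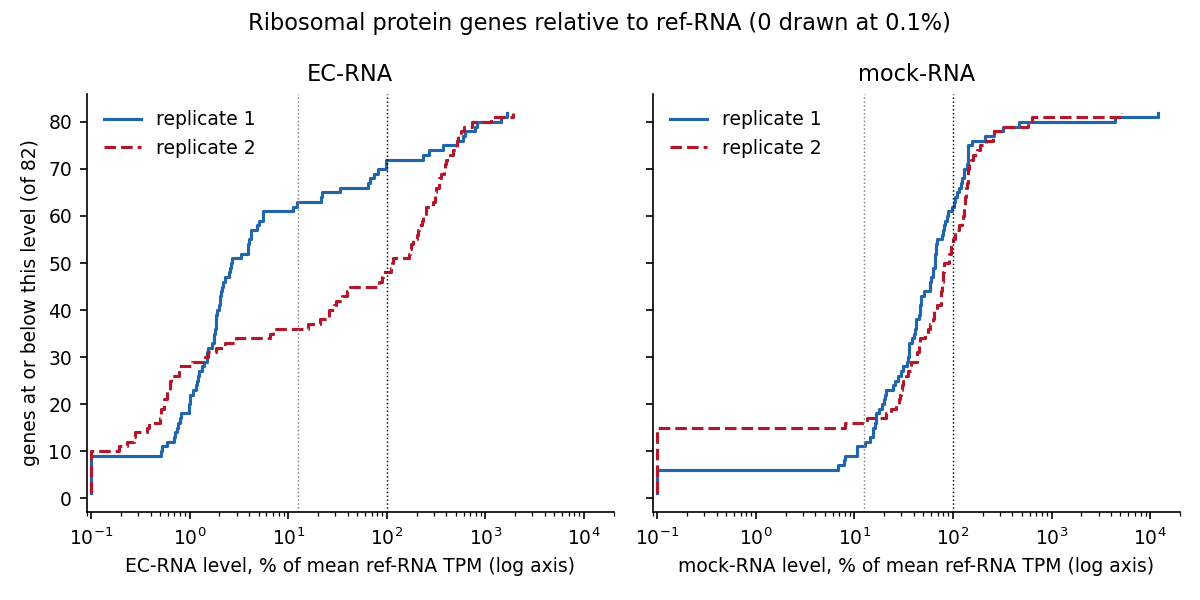
Number of the 82 ribosomal protein genes at 20 TPM or more in ref-RNA (y axis) that lie at or below a given percent of their mean ref-RNA level (x axis, log scale, 0 drawn at its left edge), for both replicates of EC-RNA (left) and mock-RNA (right), with dotted lines at 1/8 of ref-RNA and at equal levels. The median gene is at 2.00% and 30.1% in EC-RNA replicates 1 and 2 and at 47.1% and 72.3% in mock-RNA, where few genes lie between 0 and 1/8.

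Mock-RNA, which serves to show what is purified without tagging, held most ribosomal protein genes at a sizeable part of their ref-RNA level. At least 10 TPM was reached in both mock-RNA replicates by 66 ribosomal protein genes (71.7%), against 520 of all genes (3.65%). All 78 and 68 ribosomal protein genes above 0 in the mock-RNA replicates were at 10 TPM or more. For the set this cut therefore only separated listed genes from those at 0. Over all genes, 15.3% and 12.7% were above 0, and 6.52% and 8.15% were at 10 TPM or more. Leading ref-RNA transcripts were shorter in the set (median 729.5 nt) than over all genes (1823 nt), and the part of length was not tested. Of the 82 genes at 20 TPM or more in ref-RNA, 59 (72.0%) were at 1/8 of ref-RNA or above in both mock-RNA replicates, against 9.79% of all 3595 genes. Above 0 but below 1/8 were 5 and 1 of the 82 in the mock-RNA replicates, against 756 and 432 of all genes. For the set this cut too mostly separated listed genes from those at 0. The median level as a percent of ref-RNA was 47.1% and 72.3% in the mock-RNA replicates and 2.00% and 30.1% in the EC-RNA replicates, where all genes had 0 and 0, and 1.89% and 1.99%. In the band of 100 to 500 TPM, which matches genes on level, the counts were 52 of 63 (82.5%) against 18.1% of all 758 genes. Only 4 of the 82 were below 1/8 in both. Depth was lowest in these libraries, so a level above 0 there may rest on few reads, and the percents of ref-RNA are not firm estimates. A 0 there can be a missed transcript: 12 genes were at 0 in both mock-RNA replicates and 14 in a single replicate.

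Between mock-RNA and ref-RNA, 3 of 86 ribosomal protein genes tested rose (RpS27A, RpL40 and RpL41) and 10 fell (limma, adjusted p below 0.05 and at least 2-fold, over 9025 genes). Over all genes tested, 0.731% rose and 67.1% fell. The median log2 difference was -0.85 for the ribosomal protein genes and -3.19 for all genes, and the ribosomal protein genes stayed above all genes under every alternative run. The sign of their median itself turned, to 1.59 under median-of-ratios scaling (all genes -1.95, with 24 genes called higher and 3 lower, or 27.9% and 3.49% against 1.74% and 53.3% of all genes) and to 1.49 under quantile normalization (all genes 0.16, with 3 and 0, or 3.49% and 0% against 1.43% and 5.66%). Without mock-RNA replicate 1 the median was -0.56 (all genes -3.13), and without mock-RNA replicate 2 it was -1.07 (all genes -3.10). Without ref-RNA replicate 1 it was -0.93 (all genes -3.40), and without ref-RNA replicate 2 it was -0.78 (all genes -3.49). With 1 library left in a group, the spread comes from the other group alone. The number of genes called moved widely between these fits. Both mock-RNA replicates exceeded both ref-RNA replicates in 10 genes (11.6%), against 1.39% of all genes, and lay below in 40 (46.5%), against 86.3%.

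RpS27A and RpL40 are the pair of ribosomal protein genes that encode ubiquitin fused to a ribosomal protein, and of the 3 genes called higher in mock-RNA they had the smallest p. RpS27A (FBgn0003942), on chromosome 2L (10408352 to 10410456), had 147 and 191 TPM in ref-RNA, 2.85 and 44.0 TPM in EC-RNA and 7511 and 8688 TPM in mock-RNA. Its difference from ref-RNA was 5.58 ± 0.24 (SE, n = 2 and 2; limma, adjusted p = 9.3e-04), and the call held under every alternative that kept 2 libraries a group. Leaving out a library gave differences of 5.39 to 5.77. RpL40 (FBgn0003941), on chromosome 2L (4227699 to 4228561), had 288 and 262 TPM in ref-RNA, 11.6 and 43.5 TPM in EC-RNA and 1288 and 1741 TPM in mock-RNA, a difference of 2.44 ± 0.30 (SE, n = 2 and 2; limma, adjusted p = 0.00812). That call was lost with all 3 sample types in one fit (limma, adjusted p = 0.0724). The RpL40 call was also lost without ref-RNA replicate 1 or 2 (differences of 2.51 and 2.37), where only mock-RNA gave the spread. Its mock-RNA level sat wholly on FBtr0334787 (659 nt), while FBtr0077470 (587 nt) held 281 and 233 TPM in ref-RNA. Reads from the ubiquitin-coding part can match other ubiquitin genes. The polyubiquitin gene Ubi-p63E had 367 and 258 TPM in ref-RNA and 25.0 and 27.2 TPM in mock-RNA, and Ubi-p5E had 208 and 201 TPM in ref-RNA and 0 and 24.6 TPM in mock-RNA. RpL41 had 192 and 348 TPM in mock-RNA, a difference of 2.09 ± 0.53 from ref-RNA (SE, n = 2 and 2; limma, adjusted p = 0.0430). It was no longer called without mitochondrially encoded transcripts (limma, adjusted p = 0.0578) or with all 3 sample types in one fit (limma, adjusted p = 0.106). Nor was it called without ref-RNA replicate 1 or 2 (differences of 2.17 and 2.01), where only mock-RNA gave the spread.

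Among the 10 genes that fell in mock-RNA, RpS15Ab (limma, adjusted p = 7.6e-04), RpLP0-like (19.8 and 29.0 TPM in ref-RNA; limma, adjusted p = 0.00129) and RpL34a (43.9 and 27.6 TPM in ref-RNA; limma, adjusted p = 0.00150) were at 0 in both mock-RNA replicates. RpS3A fell by 3.14 on the log2 scale (SE 0.51, n = 2 and 2; limma, adjusted p = 0.0156), a call lost under median-of-ratios scaling (limma, adjusted p = 0.478) and under quantile normalization (limma, adjusted p = 0.134). It was also lost without ref-RNA replicate 1 or 2 (differences of -3.18 and -3.105), where only mock-RNA gave the spread. RpS10a was also at 0 in both mock-RNA replicates, against 17.6 and 4.60 TPM in ref-RNA (limma, adjusted p = 0.0286). RpL27A, RpL9, RpS28b and RpS20 were also among them.

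RpL39 and RpS7 were far higher in mock-RNA replicate 1 than in the other libraries. RpL39 (FBgn0023170), on chromosome 2R (24061853 to 24062431), was at 0 in both ref-RNA and both EC-RNA replicates and at 203839 and 237 TPM in mock-RNA, where it ranked first of all genes in replicate 1. Its span overlaps that of RpL12 by 8 bases, and RpL12 had 79.1 and 95.6 TPM in mock-RNA. RpS7 had 185 and 240 TPM in ref-RNA, 4.26 and 1290 TPM in EC-RNA and 25307 and 401 TPM in mock-RNA, on FBtr0339183 in replicate 1 and FBtr0089422 in replicate 2. The ribosomal protein genes together held 1.47% and 1.63% of listed TPM in ref-RNA, 1.25% and 2.94% in EC-RNA and 24.9% and 2.13% in mock-RNA. Without RpL39, RpS7, RpS27A and RpL40, a set left out after the values were seen, the shares were 1.41% and 1.56%, 1.25% and 2.81%, and 1.05% and 1.00%. Across both groups the share did not separate EC-RNA from ref-RNA (two-sided exact permutation test, p = 1.0) or EC-RNA from mock-RNA (p = 0.667 by the same exact test). Mock-RNA was above ref-RNA in 2 of 2 replicates (p = 0.333 by the same exact test, 3 comparisons), and 0.333 is the smallest p that 2 against 2 allows. This separation was lost without mitochondrially encoded transcripts, at 25.9% and 2.156% in mock-RNA against 1.94% and 2.167% in ref-RNA. It was also lost when TPM was weighted by transcript length, at 5.41% and 0.583% against 0.577% and 0.641%.

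**Figure D4:**
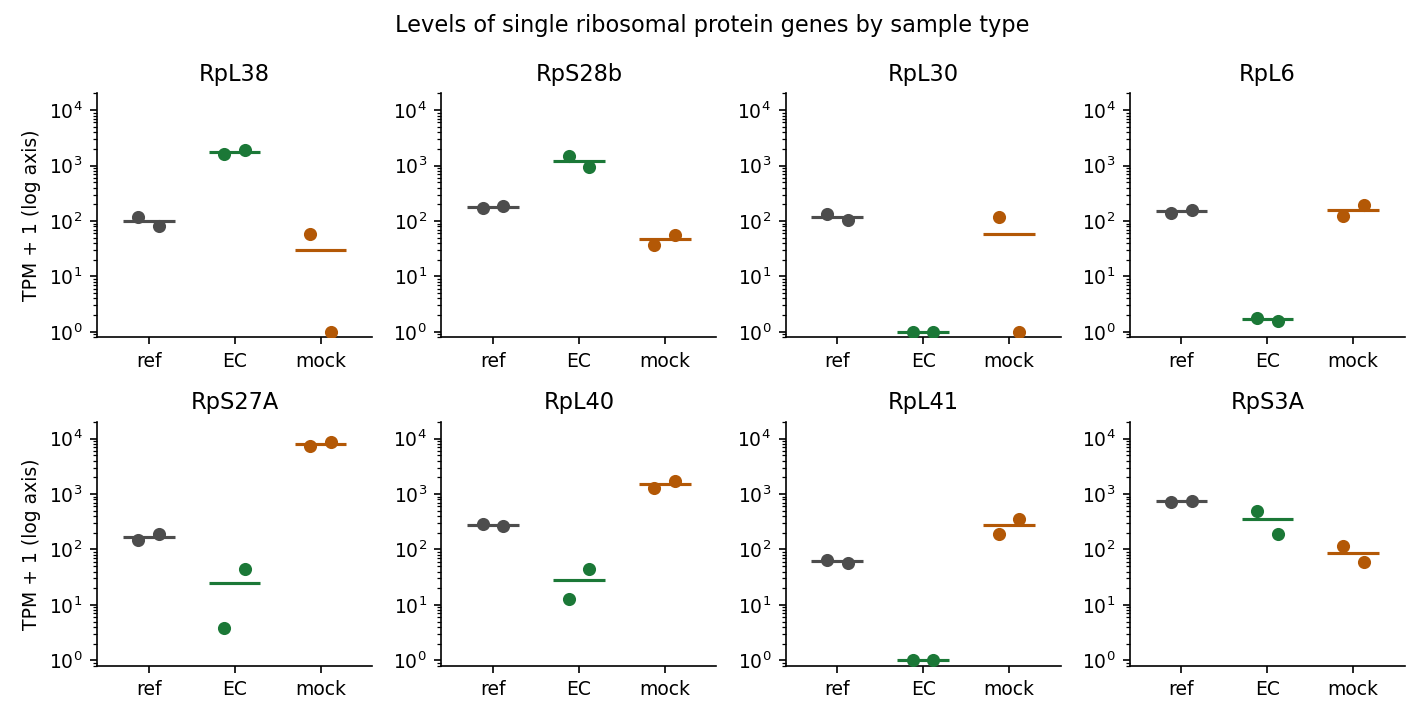
Levels of 8 ribosomal protein genes in the 6 libraries, in TPM plus 1 on a log axis, with 1 point per replicate and a bar at the mean of each sample type. RpL38 is highest in both EC-RNA replicates (1612 and 1887 TPM), RpS27A in both mock-RNA replicates (7511 and 8688 TPM), and RpL30 and RpL41 are at 0 in both EC-RNA replicates.

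Set directly against each other, EC-RNA and mock-RNA gave no called ribosomal protein gene in either direction of 82 tested by limma, while at an unadjusted p below 0.05 there were 7 higher and 22 lower. Over all 4096 genes tested, 0.342% were called higher and 0.0244% lower. The median log2 difference was -1.86 for the ribosomal protein genes and 1.91 for all genes. The ribosomal protein genes stayed below all genes in every alternative, but their own median was 0.13 without EC-RNA replicate 1, where all genes had 2.46. Without EC-RNA replicate 2 the median was -4.16, against -0.67 for all genes. Both EC-RNA replicates exceeded both mock-RNA replicates in 11 genes (13.4%), against 33.9% of all genes, and were below both in 27 (32.9%), against 8.57% of all genes. In 23 genes both mock-RNA replicates reached 10 TPM and neither EC-RNA replicate did, among them RpL6, RpS13 and RpL8. RpS13 had 197 and 211 TPM in mock-RNA and 3.20 and 4.74 TPM in EC-RNA, and RpL8 had 131 and 237 TPM against 0.701 and 0.258 TPM. These 3 were picked after their values were seen.

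Of the 3 stalk genes, RpLP1 and RpLP2 fell in EC-RNA against ref-RNA and RpLP0 did not pass the test. RpLP1 had 141 and 154 TPM in ref-RNA, 3.94 and 9.73 TPM in EC-RNA and 61.3 and 259 TPM in mock-RNA, and it fell by 4.35 in EC-RNA on the log2 scale (SE 1.00, n = 2 and 2; limma, adjusted p = 0.0329). RpLP2 had 196 and 78.3 TPM in ref-RNA, 1.38 and 0 TPM in EC-RNA and 28.7 and 208 TPM in mock-RNA, and it fell by 6.34 (SE 0.89, n = 2 and 2; limma, adjusted p = 0.00970). RpLP0, whose EC-RNA replicates lay at 3.88 and 890 TPM, did not pass (limma, adjusted p = 0.575). Under median-of-ratios scaling neither RpLP1 nor RpLP2 was called (limma, adjusted p = 0.471 and 0.124), nor after quantile normalization (limma, adjusted p = 0.364 and 0.368). Neither was called without ref-RNA replicate 1 (differences of -4.42 and -5.68) or replicate 2 (-4.29 and -6.99), where only EC-RNA gave the spread. RpLP1 was also not called with a pseudocount of 0.1 TPM (limma, adjusted p = 0.0628) or without mitochondrially encoded transcripts (limma, adjusted p = 0.0522). By subunit, 17 of 45 large-subunit and 11 of 34 small-subunit genes tested fell in EC-RNA against ref-RNA, with 1 rising in each. Over all genes tested, 56.0% fell and 0.199% rose, so these counts do not show a particular loss of either subunit. No difference between subunits was tested.

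Paralogue families, in which a number is carried by more than a single gene, comprised 13 families with 27 genes, and reads shared by near-identical copies can be split between them by the quantification. In most families a single copy held the signal. RpL10Aa, RpL37b, RpS28-like, RpS28a and RpS5b were at 0 in all 6 libraries, beside RpL10Ab (99.9 and 106 TPM in ref-RNA), RpL37a, RpS28b and RpS5a (178 and 222 TPM). RpL22-like (4.04 and 0.611 TPM in ref-RNA), RpS10a and RpS19b (0 and 1.59 TPM) were at 0 in both EC-RNA and both mock-RNA replicates. Their partners RpL22 and RpS10b carried over 90% of their families in ref-RNA, as did RpS19a, which had 90.7 and 121 TPM in ref-RNA, 0.747 and 0.824 TPM in EC-RNA and 138 and 100.1 TPM in mock-RNA. RpS15Aa held 88.8% and 90.3% of its family in ref-RNA, RpL7 held 90.4% and 94.0%, and RpLP0 held 94.2% and 93.0%.

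In ref-RNA the RpS14, RpL34 and RpL24 families were shared between copies. RpS14a and RpS14b, 220 bases apart on chromosome X, had 63.4 and 72.4 TPM and 107 and 44.5 TPM in ref-RNA. In EC-RNA RpS14a was at 3.79 and 0 TPM and RpS14b at 0 and 67.5 TPM, and in mock-RNA they were at 78.5 and 94.9 TPM and at 0 and 58.1 TPM. RpL34b held 69.0% and 82.7% of its family in ref-RNA and 80.6% in each EC-RNA replicate, where its own level was 5.75 and 2.11 TPM. RpL24 had 92.3 and 125 TPM in ref-RNA, 1.90 and 471 TPM in EC-RNA and 39.3 and 285 TPM in mock-RNA. RpL24-like had 23.9 and 22.7 TPM in ref-RNA, 0.976 and 0.359 TPM in EC-RNA and 20.2 and 73.4 TPM in mock-RNA. RpL24 held 66.0% of its family both in EC-RNA replicate 1 and in mock-RNA replicate 1. This share and the 80.6% of RpL34b each recurred between libraries with unlike levels. Their values lay near the floor in EC-RNA and came from the libraries of lowest depth in mock-RNA. Without counts, they do not show a reproducible use of copies.

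The leading transcript of a gene often differed between libraries. Of 68 ribosomal protein genes with several transcripts, the transcript with the most TPM differed between the ref-RNA replicates in 7 of 66 genes listed in both (10.6%), between the EC-RNA replicates in 19 of 55 (34.5%) and between the mock-RNA replicates in 15 of 53 (28.3%). The leading ref-RNA transcripts were short, from 304 nt (RpL29) to 1610 nt (RpL3) with a median of 729.5 nt over 86 genes, against a median of 1823 nt over 10997 genes of the table. Across 85 ribosomal protein genes, which share libraries, the log2 difference between EC-RNA and ref-RNA had Pearson's r of 0.31 with log2 length and Spearman's rho of 0.36 with length. Across 9600 genes these were 0.14 and 0.13, and for mock-RNA against ref-RNA they were 0.07 and 0.11 over the ribosomal protein genes.

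Genes that work beside the set were compared last. The small-subunit proteins sta and Rack1, whose symbols fall outside the naming rule, split between EC-RNA replicates in the direction most of the set did. The gene sta had 190 and 217 TPM in ref-RNA, 12.1 and 835 TPM in EC-RNA and 167 and 191 TPM in mock-RNA (EC-RNA against ref-RNA, limma, adjusted p = 0.789). Rack1 had 173 and 160 TPM in ref-RNA, 2.47 and 642 TPM in EC-RNA and 76.9 and 69.7 TPM in mock-RNA (limma, adjusted p = 0.679). Of 25 ribosome assembly genes named, 22 were in the table, at mean ref-RNA levels of 2.15 to 64.8 TPM, below most ribosomal protein genes. In EC-RNA against ref-RNA, 11 of 22 fell and 0 rose by limma, with a median log2 difference of -2.27, beside 56.0% of all genes that fell and their median of -2.59. In mock-RNA 12 of 22 fell and 0 rose, with a median of -2.61, beside 67.1% and -3.19 for all genes, and 13 were at 0 in both mock-RNA replicates. Fib, the fibrillarin that methylates rRNA, had 8.45 and 12.3 TPM in ref-RNA, 186 and 0 TPM in EC-RNA and 0 TPM in both mock-RNA replicates. Nop60B, which modifies rRNA uridines, had 29.9 and 52.5 TPM in ref-RNA, 0.721 and 505 TPM in EC-RNA and 14.96 and 27.3 TPM in mock-RNA.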

How the data were processed

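RNA-seq was made from streptavidin-purified RNA of 6 libraries, 2 for each of 3 sample types. The deposited table gives TPM per transcript in each library. According to the submitters' processing notes, the authors used Trimmomatic and kallisto with BDGP6, and versions are not given in the sources used here. TPM keeps no read counts, so no count test was run and no depth-based interval could be given. The study's own DESeq2 fit on reads was not repeated.

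Transcript TPM were summed per gene. Testing used log2(TPM + 1), with a pseudocount of 1 TPM, and kept a gene if its average over the compared libraries was 1 TPM or higher. The test was limma 3.58.1 in R 4.3.3 with a trended spread, fitted on only the 2 sample types compared and no covariates. Fold changes on this scale understate those of low genes. A call needed a Benjamini-Hochberg adjusted p below 0.05 over all genes tested and at least a 2-fold difference. The test was tried on simulated data with known changes. Their spread was taken from the ref-RNA replicates, so the trial cannot show how the test does on EC-RNA or mock-RNA. Shares were compared by exact permutation over libraries. Other values were computed with SciPy 1.17.1, NumPy 2.4.6 and pandas 2.3.3 under Python 3.11.15. Gene positions and transcript lengths come from the Ensembl annotation of BDGP6, with RpS12 placed through its transcript.

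The genes given per library were the 10 highest in ref-RNA, the 5 most unequal between EC-RNA replicates, up to 5 called genes with the smallest p in each direction, paralogues, stalk genes, genes at 0 in EC-RNA but at 20 TPM or more in ref-RNA, sta and Rack1. Exceptions are named as such, and some genes that meet the rule are not reported here. The members and lists were chosen with earlier results of these data known. Promoter and protein sequences and uridine content were not analysed here. Alternatives changed the filter, pseudocount, scaling, level (single transcripts), samples in the fit and replicate block, and left out each library in turn.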

Additional observations from a re-analysis of the deposited data

How the results depend on the processing

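Against the counts in the main text, EC-RNA over ref-RNA gave 0 higher and 0 lower ribosomal protein genes after quantile normalization (3 and 27 at an unadjusted p below 0.05 by limma), and 6 and 7 under median-of-ratios scaling. Over single transcripts, 1 transcript was higher and 66 lower of 156 tested. The share lower was 42.3%, against 44.5% of all 14534 transcripts and 37.6% of the set by gene sums. There was 1 gene higher when all 3 sample types shared a fit (1.18%, against 0.188% of all genes). Leaving out each library in turn gave 1 to 27 higher and 17 to 67 lower. EC-RNA over mock-RNA gave 1 lower without a filter, with a pseudocount of 10 TPM or without mitochondrially encoded transcripts, 4 lower after quantile normalization, and 2 higher and 13 lower with all 3 sample types in one fit. There, leaving out each library gave medians of -4.16 to 0.13. Mock-RNA over ref-RNA gave 24 higher and 3 lower under median-of-ratios scaling, 7 and 37 of 161 transcripts over single transcripts, 17 lower with a pseudocount of 10 TPM, 0 lower after quantile normalization and 5 lower in the joint fit, and leaving out each library gave 1 to 8 higher and 4 to 42 lower. In the EC-RNA over mock-RNA joint fit, 2.44% of the set were higher and 15.9% lower, against 6.98% and 0.977% of all genes. In mock-RNA over ref-RNA, 23.0% of single transcripts of the set were lower, against 52.7% of all transcripts. There, the shares lower were 19.8% against 47.5% with a pseudocount of 10 TPM and 5.81% against 57.8% in the joint fit. The cause of these shifts between settings was not tested. The mean ref-RNA share of 1.55% was 2.05% without mitochondrially encoded transcripts, 0.609% weighted by transcript length and 1.28% without paralogue families. At 10 TPM or more, 20 and 47 genes were listed in EC-RNA replicates 1 and 2. Single-library shares ran from 1.47 to 1.63% in ref-RNA, 1.25 to 2.94% in EC-RNA and 2.13 to 24.9% in mock-RNA.

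Replicate numbers did not pair the libraries, since over the ribosomal protein genes the deviations of same-numbered libraries correlated at 0.06 (ref-RNA and EC-RNA), 0.00 (ref-RNA and mock-RNA) and 0.15 (EC-RNA and mock-RNA), and over all genes at 0.00, 0.00 and 0.01. With the replicate number as a block, 0 rose and 25 fell in EC-RNA over ref-RNA (29.4% fell, against 50.1% of all genes). EC-RNA over mock-RNA gave 4 higher and 5 lower (4.88% and 6.10%, against 3.83% and 0.903% of all genes). Mock-RNA over ref-RNA gave 3 higher and 4 lower (3.49% and 4.65%, against 0.587% and 62.9%). The block ended the calls of RpL38 (limma, adjusted p = 0.0521), RpS28b (0.109) and RpLP1 (0.144) in EC-RNA over ref-RNA and of RpL41 (0.156) and RpS3A (0.0558) in mock-RNA over ref-RNA. Of the genes recomputed singly, none changed direction in a comparison where it was called, while some uncalled differences did. With 2 libraries a group and no counts, low levels and zeros in EC-RNA and mock-RNA cannot be told from missed transcripts.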
